A study of Saccharomyces cerevisiae with 6 samples.

Results

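The 10 genes described here encode the core of growth control by the target of rapamycin (TOR) in Saccharomyces cerevisiae. They are the kinases TOR1 and TOR2, their partners KOG1, TCO89 and LST8, the kinase SCH9, the transcription factor SFP1, the phosphatase regulators TAP42 and TIP41, and the kinase NPR1. They were chosen by name, and the platform annotation gave each of them 1 probe set, out of 5449 S. cerevisiae genes with a probe set. The cells carried either hsc82-W296A, an Hsp90 in which a tryptophan is replaced by alanine, or WT Hsc82, the unaltered form. Both groups were strain JJ816, which has lost both of its chromosomal Hsp90 genes, HSC82 and HSP82, so that the Hsc82 made from a plasmid was the only Hsp90 in either group. Neither group had a chromosomal copy of an Hsp90 gene, and neither could make Hsp82. Cultures grew overnight in the rich medium YPD at 30 degrees and were collected in exponential phase, 3 with hsc82-W296A and 3 with WT Hsc82, each read on 1 Affymetrix array. The arrays read RNA of whole cultures, so less RNA per cell and fewer cells with the RNA cannot be told apart.

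TOR complex 1 (TORC1) contains Tor1 or Tor2 with Kog1, Lst8 and Tco89, sits at the vacuole and is inhibited by rapamycin. When amino acids and nitrogen are plentiful it phosphorylates Sch9, promotes the nuclear localisation of Sfp1 and acts through Tap42 and its phosphatases, which together keep ribosome production high and stress and starvation genes low. TOR complex 2 (TORC2) contains Tor2 and Lst8 with Avo proteins and acts on the plasma membrane through the kinases Ypk1 and Ypk2. TOR kinases belong to the phosphatidylinositol 3-kinase-related kinases, a family of very large proteins whose assembly needs Hsp90 together with the Tel2, Tti1 and Tti2 proteins.

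Many genes differed between the genotypes, which sets the scale for the 10. An adjusted p under 0.05 was reached by 67.3% of all genes, with 37.1% higher and 30.3% lower in hsc82-W296A. The groups did not overlap in 73.6% of genes, 39.5% higher and 34.1% lower. The median signal of S. cerevisiae probe sets was 11.07 to 11.13 on the hsc82-W296A arrays and 10.94 to 11.04 on the WT Hsc82 arrays, and that of probe sets for another yeast species on the array was 6.38 to 6.46 on the hsc82-W296A arrays and 6.52 to 6.70 on the WT Hsc82 arrays. Because these array-wide medians moved with the genotype, each member's change is also given below under other scalings of the arrays where that alters it. The plasmid-borne HSC82 read 14.53, 14.53 and 14.56 in hsc82-W296A, against 14.24, 14.30 and 14.30 in WT Hsc82, and its probe set cannot show the substitution. All signals and changes are on the log2 scale, and a change is hsc82-W296A minus WT Hsc82 with its standard error (SE) from the limma fit, n = 3 cultures per group.

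Of the 10 growth regulators, 5 rose, 1 fell and 4 did not pass the threshold. That is 60.0% called, beside 67.3% of all genes, so the share is close to that of the genome. TCO89 and TIP41 rose most, by 0.78 and 0.71. TOR1, TOR2 and SFP1 rose by 0.20 to 0.40, and LST8 fell by 0.25. KOG1, SCH9, TAP42 and NPR1 did not pass. No member changed by 2-fold or more, as 9.76% of all genes did. The groups did not overlap for 7 members, 6 of them higher and 1 lower. The median change of the 10 was 0.21, beside 0.04 for all genes. All 10 read above the background level of 8.14, the 95th percentile of the means of other-species probe sets, on every array, and their lowest reading was 9.03.

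The TOR kinases were taken first. TOR1, whose product works in TORC1 alone, read 10.88, 10.97 and 10.89 in hsc82-W296A, against 10.60, 10.76 and 10.78 in WT Hsc82. Every hsc82-W296A culture lay above every WT Hsc82 culture. The change was 0.20 ± 0.061 (SE, adjusted p = 0.0234), or 1.15-fold. TOR2, the essential paralog that serves both complexes, read 10.29, 10.39 and 10.61 in hsc82-W296A, against 9.80, 10.15 and 10.15 in WT Hsc82. Its groups did not overlap either, and 1 WT Hsc82 culture stood well below the other two. TOR2 changed by 0.40 ± 0.121 (SE, adjusted p = 0.0234), or 1.32-fold.

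The rise of TOR1 was at most 0.10 and not past the threshold when the arrays were brought to a common median (median centring), to common background and S. cerevisiae medians (background matching), or to common quantiles (quantile normalization). It was -0.10 (adjusted p = 0.200) after length correction, in which the trend of the change on gene length is subtracted, and over all 16 alternatives the adjusted p of TOR1 ran from 0.00294 to 0.217. TOR2 fell short of the threshold after quantile normalization, at 0.17 (adjusted p = 0.124), and after length correction, at 0.10 (adjusted p = 0.487), and its range was 0.00183 to 0.487. Without hsc82-W296A replicate 2 the adjusted p was 0.0817 for TOR1 and 0.0522 for TOR2, and without hsc82-W296A replicate 3 it was 0.0533 for TOR1 and 0.0728 for TOR2. The paralogs were also compared within each array, which asks whether TOR1 and TOR2 changed to an unequal extent. The signal of TOR1 minus that of TOR2 averaged 0.49 ± 0.18 in hsc82-W296A and 0.68 ± 0.10 in WT Hsc82 (SD, n = 3 each), a difference of -0.20 with p = 0.1 in an exact two-sided permutation test, the smallest p that 3 against 3 arrays can give. The difference was -0.24 after background matching, with an exact p of 0.1. Median centring subtracts a constant from each array and so cannot alter a within-array difference. Length correction moved both genes by nearly the same amount and left the difference at -0.20. Neither of those settings is therefore a check on it. After quantile normalization the difference was -0.11 with an exact p of 0.6. This test cannot give a p under 0.05 with 3 against 3 arrays, so an unequal change of the paralogs is not established.

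The partners of the kinases in TORC1 moved in different directions. TCO89, the subunit found in TORC1 and not in TORC2, read 9.86, 10.15 and 10.27 in hsc82-W296A, against 9.03, 9.39 and 9.54 in WT Hsc82. Every hsc82-W296A value was above every WT Hsc82 value. The change was 0.78 ± 0.155 (SE, adjusted p = 0.00393), or 1.71-fold, larger in size than that of 84.5% of genes. LST8, the beta-propeller subunit of both complexes that binds the kinase domain, read 10.95, 10.96 and 11.05 in hsc82-W296A, against 11.09, 11.24 and 11.36 in WT Hsc82. It was the only one of the 10 called lower, with every hsc82-W296A culture under every WT Hsc82 culture. LST8 changed by -0.25 ± 0.075 (SE, adjusted p = 0.0231), which puts the WT Hsc82 signal 1.19-fold above that of hsc82-W296A. KOG1, the yeast counterpart of raptor, which brings substrates to TORC1, read 10.37, 10.46 and 10.50 in hsc82-W296A, against 10.44, 10.48 and 10.57 in WT Hsc82. Its groups overlapped, and the change of -0.05 ± 0.056 did not pass (95% interval -0.18 to 0.09, adjusted p = 0.491).

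The rise of TCO89 passed under all 16 alternatives, with changes of 0.44 to 0.89 and adjusted p-values of 3.74e-05 to 0.0168, and the lowest change was that after quantile normalization. LST8 was called lower under all 4 other scalings, at -0.37 to -0.21. Its call was lost without hsc82-W296A replicate 1 (adjusted p = 0.0579) or 2 (0.0712) and without WT Hsc82 replicate 2 (0.0678) or 3 (0.0552), and over the 16 alternatives its adjusted p ran from 0.000571 to 0.0712. KOG1 was called lower after quantile normalization (-0.22, adjusted p = 0.00181), after median centring (-0.16, adjusted p = 0.0144) and after length correction (-0.30, adjusted p = 0.00305), and its adjusted p reached 0.898 under other alternatives.

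**Figure D1:**
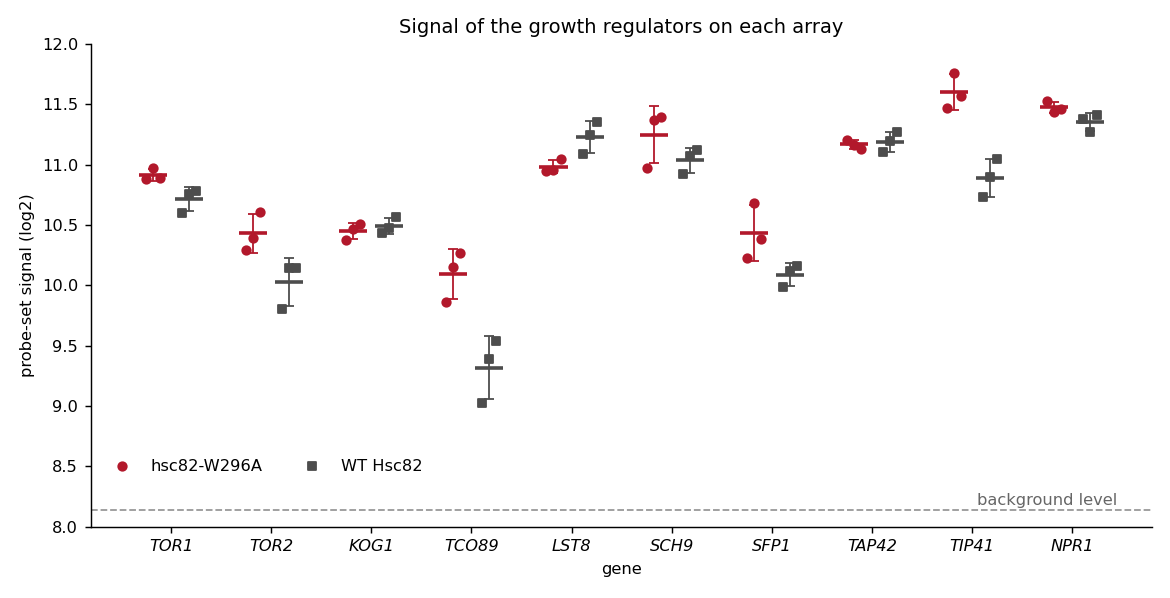
Signal of each growth regulator on each array (vertical axis, log2 probe-set signal), with hsc82-W296A cultures as circles and WT Hsc82 cultures as squares, the horizontal bar at the mean and whiskers of 1 SD (n = 3 each). The groups separate for TOR1, TOR2, TCO89, LST8, SFP1, TIP41 and NPR1, all values lie above the dashed background level of 8.14, and heights of different genes come from different probes and are not comparable.

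SCH9 and SFP1 carry the growth signal onward. SFP1, a zinc finger activator of ribosomal protein and ribosome biogenesis genes, read 10.23, 10.68 and 10.39 in hsc82-W296A, against 9.98, 10.12 and 10.16 in WT Hsc82. All 3 hsc82-W296A cultures lay above the WT Hsc82 cultures, and 1 of them stood well above the other two. SFP1 changed by 0.34 ± 0.117 (SE, adjusted p = 0.0358), or 1.27-fold. SCH9, an AGC-family kinase phosphorylated by TORC1, read 10.97, 11.37 and 11.39 in hsc82-W296A, against 10.92, 11.07 and 11.12 in WT Hsc82. A pair of hsc82-W296A cultures lay above all WT Hsc82 cultures and the remaining one lay among them. SCH9 changed by 0.21 ± 0.122 (95% interval -0.08 to 0.50, adjusted p = 0.168) and did not pass.

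SFP1 lost its call after quantile normalization (0.13, adjusted p = 0.321), after median centring (0.23, adjusted p = 0.0611) and after length correction (0.20, adjusted p = 0.177). It was called in 1 of the 6 fits that left out an array, with adjusted p = 0.0102 and a change of 0.45 without hsc82-W296A replicate 1, and adjusted p-values of 0.0530 to 0.0995 and changes of 0.22 to 0.38 without each of the others. SCH9 passed with the replicate number as a block (adjusted p = 0.0251). Without hsc82-W296A replicate 1 it also passed, at 0.35 (adjusted p = 0.00624), and over the 16 alternatives its adjusted p ran from 0.00543 to 0.824.

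In the phosphatase arm TIP41 rose and TAP42 did not pass. TIP41, whose product binds Tap42 and opposes TOR signalling, read 11.47, 11.76 and 11.57 in hsc82-W296A, against 10.73, 10.89 and 11.05 in WT Hsc82. The lowest hsc82-W296A culture lay well above the highest WT Hsc82 culture. TIP41 changed by 0.71 ± 0.104 (SE, adjusted p = 0.000919), or 1.64-fold, larger in size than the change of 82.0% of genes. It passed under all 16 alternatives, with changes of 0.58 to 0.79 and adjusted p-values of 1.91e-05 to 0.00495. TAP42, the essential regulatory protein that binds phosphatases of the 2A type, read 11.21, 11.17 and 11.13 in hsc82-W296A, against 11.10, 11.20 and 11.27 in WT Hsc82. The groups overlapped, and the change was -0.02 ± 0.055 (95% interval -0.15 to 0.11, adjusted p = 0.757). TAP42 passed under none of the 16 alternatives (adjusted p = 0.0509 to 0.977).

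NPR1, a kinase that TORC1 inhibits and that stabilises nitrogen permeases when active, read 11.53, 11.44 and 11.46 in hsc82-W296A, against 11.38, 11.27 and 11.41 in WT Hsc82. The values did not overlap, but the gap was small beside the spread. NPR1 changed by 0.12 ± 0.055 (95% interval -0.01 to 0.25, adjusted p = 0.0872) and did not pass. It was -0.02 after background matching and -0.05 after length correction, so its direction depends on the scaling.

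The median changes of the members and of all genes both depended on the scaling. The median change of all genes was 0.04 as deposited, -0.07 after median centring, -0.06 after background matching, -0.09 after quantile normalization and -0.01 after length correction. The median change of the 10 members under those settings was 0.21, 0.09, 0.09, 0.09 and 0.01. After quantile normalization 2 members were higher and 2 lower, beside 28.5% and 44.6% of all genes. After median centring 3 were higher and 2 lower, beside 31.2% and 42.3%. After background matching 4 were higher and 1 lower, beside 32.0% and 40.6%, and after length correction 2 were higher and 2 lower, beside 32.5% and 33.7%. TCO89 and TIP41 were higher and LST8 was lower under each of these settings.

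**Figure D2:**
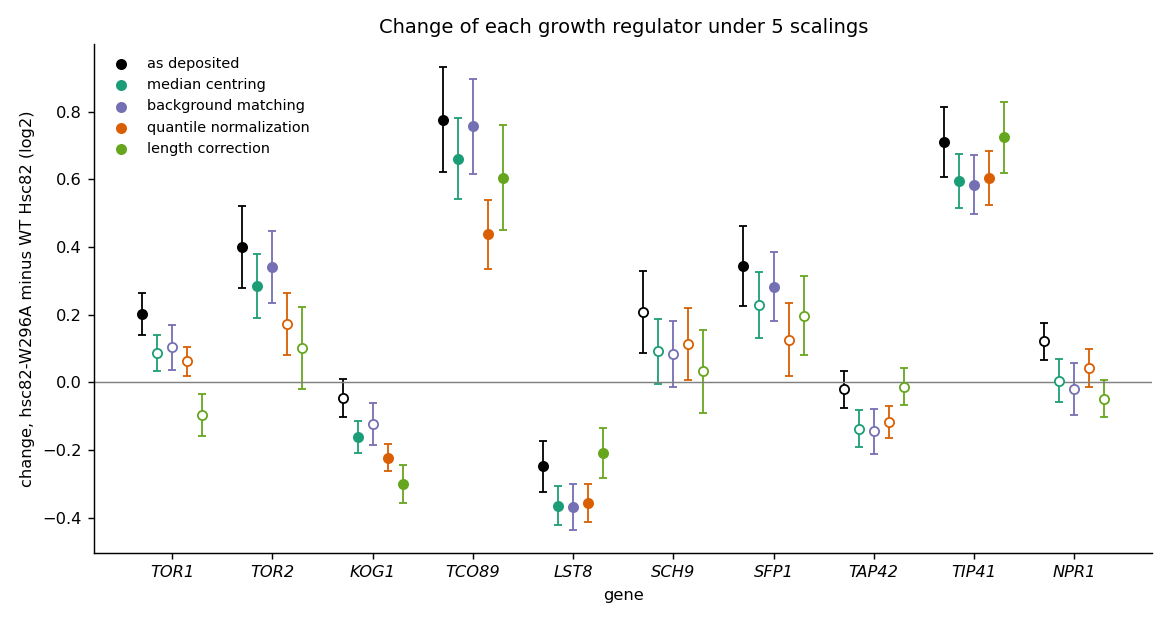
Change of each growth regulator, hsc82-W296A minus WT Hsc82 (vertical axis, log2), as deposited and under 4 other scalings of the arrays, with bars of 1 SE of the limma fit (n = 3 each) and filled circles where the adjusted p was under 0.05. TCO89 and TIP41 are filled and above 0 and LST8 filled and below 0 in each scaling, while TOR1 is filled as deposited alone and turns to -0.10 after length correction.

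Ranked among all genes, the members lay mostly in the middle and upper part of the distribution. The change of LST8 was above that of 22.5% of genes, KOG1 above 41.6%, TAP42 above 44.3% and NPR1 above 57.0%. TOR1 and SCH9 lay above 62.9% and 63.3%, SFP1 above 71.6% and TOR2 above 74.6%. TIP41 and TCO89 lay above 85.5% and 87.0%.

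**Figure D3:**
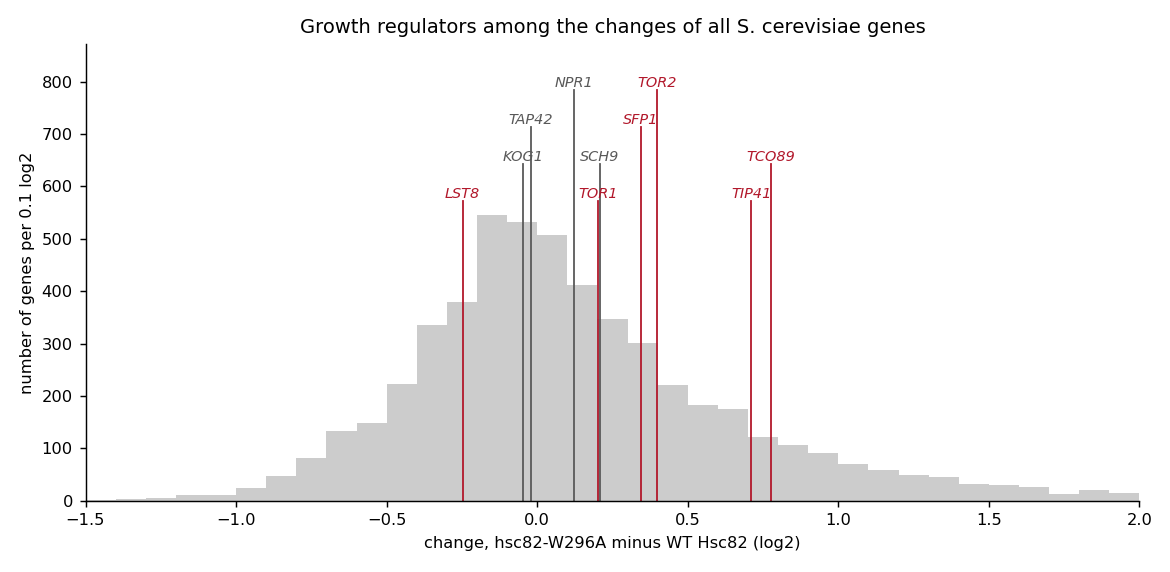
Number of genes (vertical axis) by change, hsc82-W296A minus WT Hsc82 (horizontal axis, log2, bins of 0.1; genes beyond the axis ends are not shown), with a line for each growth regulator, red where the adjusted p was under 0.05 and grey where it was not. The lines run from LST8 at -0.25 to TCO89 at 0.78, and line height has no meaning.

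The genes with the profiles nearest to those of TOR1, SCH9 and SFP1 over the 6 arrays were named by the root mean square difference after each gene's mean was subtracted. For TOR1 these were CTM1, SIS1 and SPT7, at 0.012, 0.014 and 0.020. For SCH9 they were RGA1, PBP1 and NAP1, at 0.026, 0.029 and 0.031. For SFP1 they were TUL1, DSN1 and SPT23, at 0.044, 0.047 and 0.051. Near profiles were common for a small change: 897 genes lay within 0.1 of TOR1, 223 within 0.1 of SCH9 and 99 within 0.1 of SFP1.

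The rest of the pathway was read in 7 lists that hold 105 measured genes, of which 52 rose, 13 fell and 40 did not pass, beside the 37.1% higher and 30.3% lower among all genes. Upstream of TORC1 stand the Gtr1 and Gtr2 GTPases with their EGO anchor, and the SEAC complex that regulates them. Of 19 measured genes, 7 rose and 2 fell, with a median change of 0.12. SNF1, the catalytic subunit of the AMP-activated kinase, rose by 0.75 ± 0.123 (adjusted p = 0.00158). NPR3, part of the SEAC module that inhibits TORC1, rose by 0.67 ± 0.109 (adjusted p = 0.00146). Its SEAC partner NPR2 stood at 0.01 (adjusted p = 0.808) and did not pass. IML1, another SEAC gene, rose by 0.64 (adjusted p = 0.0237), but its groups overlapped. The call of IML1 was lost after quantile normalization, after length correction and in 4 of the 6 fits that left out an array. PIB2, a vacuolar protein through which glutamine activates TORC1, rose by 0.51 ± 0.120. SEC13, shared by the SEAC, the COPII coat and the nuclear pore, fell by 0.26 and MEH1, the EGO anchor, by 0.20. GTR1 and GTR2 stood at -0.03 and -0.10 and did not pass. After median centring 5 genes of the list rose and 7 fell, beside 31.2% and 42.3% of all genes. After background matching also 5 rose and 7 fell, beside 32.0% and 40.6%, so small falls here depend on the scaling. Over the 4 other scalings NPR3 ran from 0.38 to 0.64, PIB2 from 0.30 to 0.44, SEC13 from -0.50 to -0.22 and MEH1 from -0.31 to -0.15, each still past the threshold, and GTR1 was called lower in 2 and GTR2 in 3 of them. With the replicate number as a block 8 rose and 5 fell, beside 40.9% and 32.3% of all genes. Without hsc82-W296A replicate 3 the call of MEH1 was lost (-0.16, adjusted p = 0.0525), and 4 genes of the list rose and 1 fell, beside 32.0% and 26.3% of all genes. Without WT Hsc82 replicate 1 the genes that fell numbered 4, beside 30.4% of all genes.

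Most genes of the list for TORC2 and its kinase branch were higher. Of 15 genes, 10 rose and 1 fell, beside 37.1% and 30.3% of all genes, with a median change of 0.38. After quantile normalization 8 rose and 2 fell, beside 28.5% and 44.6% of all genes. YPK2, an AGC kinase phosphorylated by TORC2, averaged 10.70 ± 0.12 in hsc82-W296A and 9.62 ± 0.14 in WT Hsc82 (SD, n = 3 each), a rise of 1.07 ± 0.090 (SE, adjusted p = 7.66e-05). PKH2 and PKH1, the kinases that phosphorylate the activation loop of Ypk1 and Ypk2, rose by 1.06 and 1.02. YPK1, the main kinase of the pair, rose by 0.29. The substrate adaptors SLM1 and SLM2 rose by 0.56 and 0.47, and the TORC2 subunits AVO2, AVO1 and BIT2 by 0.52, 0.44 and 0.35, while TSC11 at 0.38 (adjusted p = 0.0524) and BIT61 at 0.03 did not pass. The paralogs ORM1 and ORM2, which restrain sphingolipid synthesis and are phosphorylated by this branch, moved apart. ORM1 averaged 11.77 ± 0.14 in hsc82-W296A and 12.46 ± 0.05 in WT Hsc82 (SD, n = 3 each) and changed by -0.69 ± 0.076 (SE, adjusted p = 0.000252), and ORM2 rose by 0.37. With the replicate number as a block TSC11 passed (adjusted p = 0.000628), and 13 of the 15 genes rose and 1 fell, beside 40.9% and 32.3% of all genes. TSC11 also passed without hsc82-W296A replicate 1 (0.50) and without WT Hsc82 replicate 2 (0.47). After quantile normalization AVO2 was 0.12, SLM2 0.18 and PKH2 0.70, all past the threshold, while AVO1 at 0.05 and BIT2 at -0.13 lost their calls, BIT2 with a turned direction. AVO1 also lost its call after length correction (0.22), YPK1 after background matching (0.11), and ORM2 after median centring (0.25) and background matching (0.16).

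Among the phosphatases that work with Tap42 and their helpers, 9 of 16 genes rose and 3 fell, beside 37.1% and 30.3% of all genes. The median change of the list was 0.16. After quantile normalization 6 rose and 4 fell, beside 28.5% and 44.6% of all genes. After median centring 6 rose and 3 fell, beside 31.2% and 42.3%, and after background matching also 6 and 3, beside 32.0% and 40.6%. The list median was 0.13 after length correction, 0.10 after quantile normalization, 0.04 after median centring and -0.03 after background matching. RRD1, a prolyl isomerase that activates phosphatases of the 2A type, averaged 10.21 ± 0.22 in hsc82-W296A and 8.65 ± 0.23 in WT Hsc82 (SD, n = 3 each), a rise of 1.57 ± 0.148 (SE, adjusted p = 0.000124), and its paralog RRD2 rose by 0.63. PPE1, the methylesterase that removes the carboxyl methyl group of the catalytic subunits, rose by 1.15 ± 0.085 (adjusted p = 4.39e-05). PPM1, the methyltransferase that adds the group, changed by -0.21 ± 0.067 (adjusted p = 0.0300). That call was lost after length correction (adjusted p = 0.0508) and in 4 of the 6 fits that left out an array, those without hsc82-W296A replicate 2 or 3 or WT Hsc82 replicate 2 or 3, where the change was -0.22 to -0.16 and the adjusted p 0.0641 to 0.0999. The catalytic subunits SIT4 and PPG1 rose by 0.37 and 0.27, PPH3 fell by 0.23, and PPH22 at 0.11 passed only without WT Hsc82 replicate 3 among the fits that left out an array. PPH21 rose by 0.14 (adjusted p = 0.0363), a call lost in all 6 fits that left out an array. CDC55 rose by 0.41 and passed under each of the 4 other scalings. RTS1 rose by 0.35 (adjusted p = 0.0411) and TPD3 by 0.18, but RTS1 passed under none of those scalings and TPD3 under 1. Of the Sit4-associated proteins SAP185 fell by 0.19, and SAP4, SAP155 and SAP190 did not pass. SIT4 lost its call without hsc82-W296A replicate 3 (0.33, adjusted p = 0.0538), and PPG1 after quantile normalization (0.10, adjusted p = 0.0590). Over the 4 other scalings PPH3 ran from -0.38 to -0.19 and SAP185 from -0.40 to -0.30, past the threshold in each, and SAP4 was called lower in 1.

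Of 13 genes listed as linked to Npr1, mostly transporters and adaptors, 9 rose and 0 fell by limma, beside 37.1% and 30.3% of all genes. These RNA signals do not show what Npr1 does to the proteins. The median change was 0.35. At an unadjusted p under 0.05, 1 gene was lower. ALY2, an arrestin-like adaptor that Npr1 phosphorylates, averaged 10.32 ± 0.27 in hsc82-W296A and 9.07 ± 0.29 in WT Hsc82 (SD, n = 3 each), a rise of 1.25 ± 0.183 (SE, adjusted p = 0.000957). GAP1, the general amino acid permease, rose by 0.93 ± 0.150, and MEP1, an ammonium permease, by 0.86 ± 0.150. MEP2, the high-affinity ammonium permease and sensor, was that gene, at -0.27 (adjusted p = 0.0626), and did not pass as deposited, and was called lower under each of the 4 other scalings and without hsc82-W296A replicate 1 (-0.34). After background matching 6 genes of the list rose and 1 fell, beside 32.0% and 40.6% of all genes. After length correction also 6 rose and 1 fell, beside 32.5% and 33.7%. After quantile normalization 7 rose and 1 fell, beside 28.5% and 44.6%, and after median centring 9 and 1, beside 31.2% and 42.3%. The list median was 0.19 to 0.23 under these scalings.

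The retrograde response links mitochondrial state and TORC1 to the Rtg1 and Rtg3 factors. Of 14 genes, 10 rose and 2 fell, beside 37.1% and 30.3% of all genes, with a median change of 0.27. After background matching only 5 rose, beside 32.0% of all genes. PYC1, a pyruvate carboxylase that feeds oxaloacetate to the tricarboxylic acid cycle, averaged 12.49 ± 0.21 in hsc82-W296A and 10.85 ± 0.03 in WT Hsc82 (SD, n = 3 each), a rise of 1.64 ± 0.10 (SE, adjusted p = 2.24e-05). CIT1 and CIT2, the mitochondrial and peroxisomal citrate synthases, rose by 0.93 and 0.90, and ACO1, aconitase, by 0.64. DLD3, like CIT2 a target of Rtg1 and Rtg3, changed by -0.45 ± 0.056 (adjusted p = 0.000416), the opposite direction from CIT2. MKS1, which restrains Rtg1 and Rtg3, fell by 0.22. The list also holds BMH1 and BMH2, which rose by 0.14 and 0.29 (adjusted p = 0.0245 and 0.000994). After background matching they stood at -0.16 and 0.02 and did not pass. RTG2 rose by 0.21 (adjusted p = 0.0353) and passed under none of the 4 other scalings. Over the 4 other scalings ACO1 ran from 0.34 to 0.61 and MKS1 from -0.39 to -0.31, past the threshold in each. RTG1 read below background on all 6 arrays.

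Regulators of ribosome gene transcription below TORC1, Sch9 and Sfp1 differed among themselves. Of 17 genes, 5 rose, 2 fell and 10 did not pass, beside 37.1% higher and 30.3% lower among all genes. The median change was -0.04. YAK1, a kinase that opposes growth signalling, averaged 12.16 ± 0.17 in hsc82-W296A and 10.30 ± 0.17 in WT Hsc82 (SD, n = 3 each), a rise of 1.86 ± 0.115 (SE, adjusted p = 2.37e-05). DOT6 and STB3, repressors of ribosome biogenesis genes that Sch9 phosphorylates, rose by 1.56 ± 0.124 and 1.45 ± 0.130 (adjusted p = 5.95e-05 and 9.80e-05). TOD6, the paralog of DOT6, changed by -0.64 ± 0.092 (adjusted p = 0.000854), and HMO1, which binds ribosomal protein and ribosomal DNA promoters, by -0.25. The activators FHL1, IFH1 and RAP1 of ribosomal protein genes stood at -0.08, -0.04 and -0.08 and did not pass. SIN3 of the Rpd3 histone deacetylase complex rose by 0.51. CRF1, a corepressor of ribosomal protein genes, was called higher by 0.72 but read below background on all 6 arrays, so its size is uncertain. RAP1 was called lower under each of the 4 other scalings, at -0.26 to -0.16, and FHL1 and IFH1 under 1 each. Over the same scalings HMO1 ran from -0.44 to -0.20, SIN3 from 0.25 to 0.42 and CRF1 from 0.40 to 0.86, past the threshold in each. After quantile normalization 9 of the 17 were lower and 5 higher, beside 44.6% and 28.5% of all genes. After background matching 6 were lower and 5 higher, beside 40.6% and 32.0%.

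Assembly of TOR-type kinases was read last. Of 11 genes, 2 rose and 3 fell, beside 37.1% and 30.3% of all genes, with a median change of -0.08. The list also holds MEC1, TEL1 and TRA1, which are members of the kinase family and not assembly factors. The rises were those of MEC1 and TRA1, and the falls those of the assembly factors TEL2, TTI2 and RVB1. TEL2, which with Tti1 and Tti2 binds the newly made kinases, averaged 10.38 ± 0.0020 in hsc82-W296A and 10.69 ± 0.090 in WT Hsc82 (SD, n = 3 each) and changed by -0.32 ± 0.055 (SE, adjusted p = 0.00210). TTI2 fell by 0.22, and TTI1 stood at 0.04 and did not pass. RVB1, an ATPase of the complex that couples Hsp90 to kinase assembly, changed by -0.13 ± 0.042 (adjusted p = 0.0254), and without hsc82-W296A replicate 1, 2 or 3 or WT Hsc82 replicate 2 or 3 its adjusted p was 0.0591 to 0.0708. MEC1 and TRA1, other large proteins of the same kinase family, rose by 0.65 and 0.50, and after length correction by 0.35 and 0.16 (adjusted p = 0.0204 and 0.0345). TEL1 at -0.15 did not pass as deposited and was called lower in 3 of the 4 other scalings, and TTI1 in 1. Over those scalings TEL2 ran from -0.51 to -0.40, TTI2 from -0.38 to -0.25 and RVB1 from -0.38 to -0.16, past the threshold in each. After background matching 5 genes of the list were lower, after median centring 8 and after quantile normalization 9, and 2 were higher in each. Among all genes 40.6%, 42.3% and 44.6% were lower under these scalings and 32.0%, 31.2% and 28.5% higher.

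**Figure D4:**
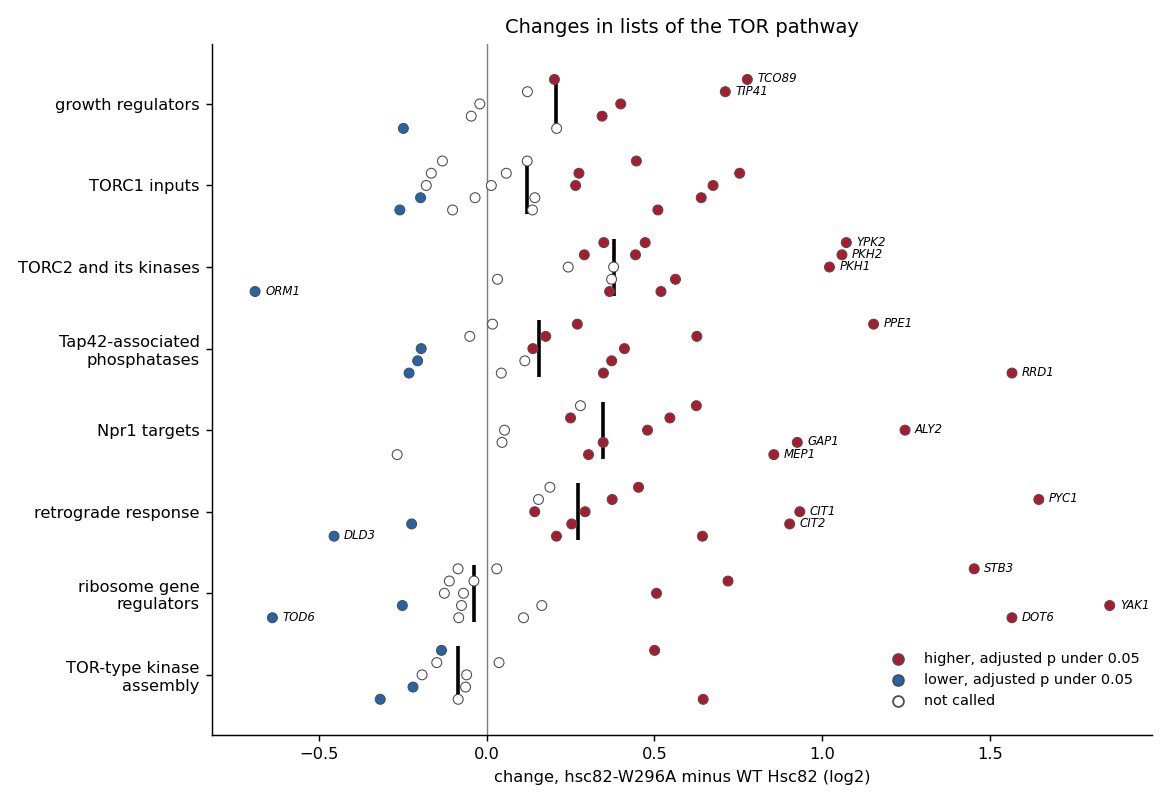
Change of each gene, hsc82-W296A minus WT Hsc82 (horizontal axis, log2, n = 3 each), for the 10 growth regulators and the 7 lists of the TOR pathway (rows), coloured by call, with a black line at each list's median and vertical spread only to separate points. The largest rises are YAK1 at 1.86, PYC1 at 1.64, RRD1 and DOT6, the largest fall is ORM1 at -0.69, and medians run from -0.08 to 0.38.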

How the data were processed

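Total RNA of 6 cultures was measured, per the labels as biotin-labelled cRNA on Affymetrix arrays. The deposited values are log2 probe-set signals, as judged from their range of 4.53 to 14.93. Their mean over all probe sets was 8.91 to 8.92 on every array, and the authors' method of normalization was not given. limma is named in the submitters' processing notes without a role. The background correction, the summarization of probes and the genome build were not given in the sources used here.

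Of 10928 probe sets, 7244 had 1 gene symbol, 1 several and 3683 none in the platform annotation. Matching gene IDs to the R64 gene table gave 5498 S. cerevisiae probe sets of 5449 genes, and 1746 were of another species. Where a gene had several, that with the highest mean signal was kept.

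The model was fitted per probe set by limma 3.58.1 (lmFit and eBayes, R 4.3.3), with Benjamini-Hochberg adjustment across the 5498 probe sets and a threshold of 0.05. Python 3.11.15, numpy 2.4.6 and pandas 2.3.3 made the tables and the exact permutation tests, and matplotlib 3.10.9 the plots. The scripts were tested on simulated data. Arrays have no read depth, and their number limits the precision. Since the labels call the cultures biological replicates, the spread between cultures is what a p-value measures.

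The members and lists were chosen with earlier results of these data known. The genes named are the 10 members, HSC82, in each list up to 3 largest rises and 3 largest falls among called genes whose groups did not overlap, and the 3 nearest profiles of TOR1, SCH9 and SFP1. Other list genes were named after their values were seen. A SEAC gene listed under an older name as well as its current one, RTC1, was counted once.

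Alternatives were median centring, background matching (linear matching of each array's other-species and S. cerevisiae medians), quantile normalization, length correction (subtraction of a lowess trend of the change on gene length), leaving out dim or shared probe sets or each array in turn, testing all probe sets, an intensity trend, array weights (whose estimation stopped before convergence) and a replicate block. The groups share replicate numbers. Same-numbered arrays had deviations from their group means that correlated at 0.405, 0.148 and 0.364. Among unlike-numbered arrays, hsc82-W296A replicate 2 with WT Hsc82 replicate 3 gave 0.107. The value for hsc82-W296A replicate 3 with WT Hsc82 replicate 2 was 0.139, and the remaining ones were negative. The same cut-off of 0.1 therefore does not set the pair numbered 2 apart from unlike-numbered arrays. As each same-numbered value exceeded 0.1, the numbers were treated as pairs in the replicate block alone. That rests on the data, since no label states a pairing. The fit to the deposited values, which gave the SEs and adjusted p-values unless another setting is named, used no pairs. Neither did the exact permutation test of 3 against 3 arrays.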

Additional observations from a re-analysis of the deposited data

How the results depend on the processing

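Fits under 16 alternatives were compared with the deposited values. TCO89 and TIP41 passed the threshold in the same direction under each of them. LST8 was lower under each scaling, and TAP42 passed under none of the 16. The calls of TOR1, TOR2, SFP1 and KOG1 and the direction of NPR1 depended on the scaling, and the cause was not tested. TOR1 was 0.063 after quantile normalization, 0.086 after median centring, 0.10 after background matching and -0.10 after length correction, none past the threshold. TOR2 was 0.17 after quantile normalization and 0.10 after length correction, and SFP1 was 0.13 after quantile normalization, 0.23 after median centring and 0.20 after length correction, again not past it. KOG1 passed, lower, at -0.22, -0.16 and -0.30 under the same 3 settings. NPR1 was -0.019 after background matching and -0.048 after length correction, and passed at 0.18 with array weights. SCH9 passed at 0.27 with array weights and, with the replicate block that pairs the arrays, at 0.21 (adjusted p = 0.0251). The block changed no other call among the members, and it moved the genes lower among TORC1 inputs to 5, against 2 without it. Members higher numbered 2 after quantile normalization, 3 after median centring and 2 after length correction, and members lower numbered 2 in each. Leaving out 1 array at a time gave 2 to 6 members called, 2 to 6 higher and 0 to 1 lower, beside 58.2% to 67.8%, 32.0% to 38.5% and 26.2% to 30.4% of all genes. It gave changes of 0.15 to 0.24 for TOR1, 0.28 to 0.47 for TOR2, -0.32 to -0.18 for LST8, 0.14 to 0.35 for SCH9, 0.22 to 0.45 for SFP1 and -0.063 to 0.019 for TAP42, and the change between TOR1 and TOR2 was -0.25 to -0.10. Of all calls, 55.0% were higher as deposited, 42.5% after median centring, 44.1% after background matching and 39.0% after quantile normalization. All 10 members read above background on every array. A change of about 0.2 passed for TOR1, with an SE of 0.061, and did not for SCH9, with an SE of 0.122.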
